A study of Homo sapiens with 6 samples.

Results

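The mitotic kinesins are microtubule motors that build the spindle, move and align chromosomes and carry out cytokinesis. The set described here is 10 genes, KIF11, KIF15, KIFC1, KIF2C, KIF18A, KIF4A, KIF23, KIF20A, KIF20B and KIF14, chosen by name from the 35615 gene symbols of the count table. These genes and the lists set beside them were chosen with earlier results of these data known. All 10 were present and passed the filter on low counts that left 14543 genes for testing. They were measured by paired-end sequencing of total RNA from K562, a human BCR-ABL1-positive leukaemia line of erythroid and megakaryocytic character. One group of 3 libraries (miR92a 1 to 3) came from cultures in which 5 M cells received, by nucleofection, 500 pmol of an oligonucleotide that mimics hsa-miR-92a-1-5p, and the other (scramble 1 to 3) from cultures given the same amount of a negative-control mimic. Both groups received 1 µM imatinib, an ABL1 kinase inhibitor, 4 h after nucleofection, and the RNA was isolated a further 24 h on. Every comparison is therefore between mimics under imatinib, and cultures without imatinib were not analysed here. The labels call the libraries biological replicates but do not say how the cultures were separated, so p-values measure the spread between these libraries.

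Kinesins turn ATP hydrolysis into movement along microtubules through a conserved motor domain. Most walk towards microtubule plus ends, KIFC1 walks towards minus ends, and KIF2C does not walk but removes tubulin from microtubule ends. In cycling cells the transcripts of these genes are low in G1 and peak in G2 and mitosis. This periodicity is known to depend on promoter elements named CHR (cell cycle genes homology region), bound by the DREAM repressor complex in quiescence and G1 and by MYBL2-containing complexes and FOXM1 in G2, often together with CCAAT boxes bound by NF-Y. A bulk library cannot tell a change in the share of cells in G2 and mitosis from a change in transcript per cell.

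The sequence of the mimic's natural counterpart, from RefSeq (GRCh38.p14, chromosome 13, 91351324 to 91351346, plus strand), is shown because its seed, bases 2 to 8 in capitals, sets which transcripts it can pair with.
hsa-miR-92a-1-5p: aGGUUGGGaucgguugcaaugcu
The shortest match searched in transcripts was CCAACC, which pairs with bases 2 to 7. None of the 10 kinesins held it in its longest 3′ UTR in GENCODE v29, whereas 27.1% of 12888 tested genes did. It was extended to 7 bases by a further C before it or an A after it, and to 8 by both. Their 3′ UTRs were short, 234 to 1891 bases with a median of 584 against 1327 for the tested genes. Among tested genes whose 3′ UTR did not exceed the longest of the kinesins, 16.0% held the match. Within coding sequences KIF23 held 1 full 8-base match in exon 21 (chromosome 15, 69446318 to 69446325), and KIF4A (exon 16, chromosome X, 70374242 to 70374248), KIF20A (1 match) and KIF15 (2 matches) held 7-base matches. KIF20A, KIF15, KIF18A and KIFC1 each also held 1 coding match of 6 bases. The share of tested genes with a match in the coding sequence was not computed. The coding sites of the genes with the largest changes are shown with the match in capitals.
KIF23 coding site: agtagcacctgCCCAACCAgatggtgcaga
KIF4A coding site: aaagaaggatgCCAACCAagccaagttga

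All 10 promoters held a CHR-type match close to the RefSeq gene start. The letters searched were read on both strands in the RefSeq promoter table (GRCh38.p14): TTTGAA, the palindrome TTTAAA and CCAAT. In the 150 bases from 100 before to 50 after the start, 10 of 10 kinesins held TTTGAA or TTTAAA, against 11.2% of the 35116 promoters in the table; in the full 300-base window the shares were 10 of 10 and 24.0%. CCAAT was present in the shorter window of 8 of the 10 kinesins and in 21.3% of all promoters, and both kinds of match in 8 of 10 and in 2.76%. The shorter window was chosen after the matches had been seen. None of the 18 tested interphase kinesins and light chains with a promoter in the table held TTTGAA or TTTAAA in that window. The share among promoters of tested genes was 7.38%. Of 5 further tested kinesins with mitotic roles 2 held such a match there, and KIF22 was not among them. Promoters of 4 members are shown, with these matches in capitals: KIF23 and KIF4A had the largest differences between the mimics, KIF20A carried the TTTAAA form, and KIF20B was the member on the other side of 0.
KIF23 (chr15:69414249-69414398, plus strand): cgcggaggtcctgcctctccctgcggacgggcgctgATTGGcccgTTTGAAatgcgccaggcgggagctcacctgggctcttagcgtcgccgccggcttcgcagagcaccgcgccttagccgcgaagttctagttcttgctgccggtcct
KIF4A (chrX:70290004-70290153, plus strand): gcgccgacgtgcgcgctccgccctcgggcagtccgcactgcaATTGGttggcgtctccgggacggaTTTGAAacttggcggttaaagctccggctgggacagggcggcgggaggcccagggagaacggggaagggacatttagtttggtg
KIF20A (chr5:138179012-138179161, plus strand): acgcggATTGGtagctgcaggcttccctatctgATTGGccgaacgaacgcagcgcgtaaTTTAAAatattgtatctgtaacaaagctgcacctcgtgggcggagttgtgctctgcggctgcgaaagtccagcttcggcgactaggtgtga
KIF20B (chr10:89701490-89701639, plus strand): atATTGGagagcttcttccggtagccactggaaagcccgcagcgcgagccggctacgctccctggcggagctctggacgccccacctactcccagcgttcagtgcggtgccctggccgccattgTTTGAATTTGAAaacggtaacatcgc
The CHR-type match started 55 bases before the RefSeq gene start in KIF23, 34 before in KIF4A and 41 before in KIF20A. KIF20B had 2 adjacent matches that began 25 and 31 bases after its RefSeq start. The gene coordinates given below with single genes are those of GENCODE v29, whose starts differ from these RefSeq starts. The GENCODE start of KIF20A (138178719), for example, lies before the whole window shown. A match is a description of letters, and binding was not measured in this series.

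**Figure D1:**
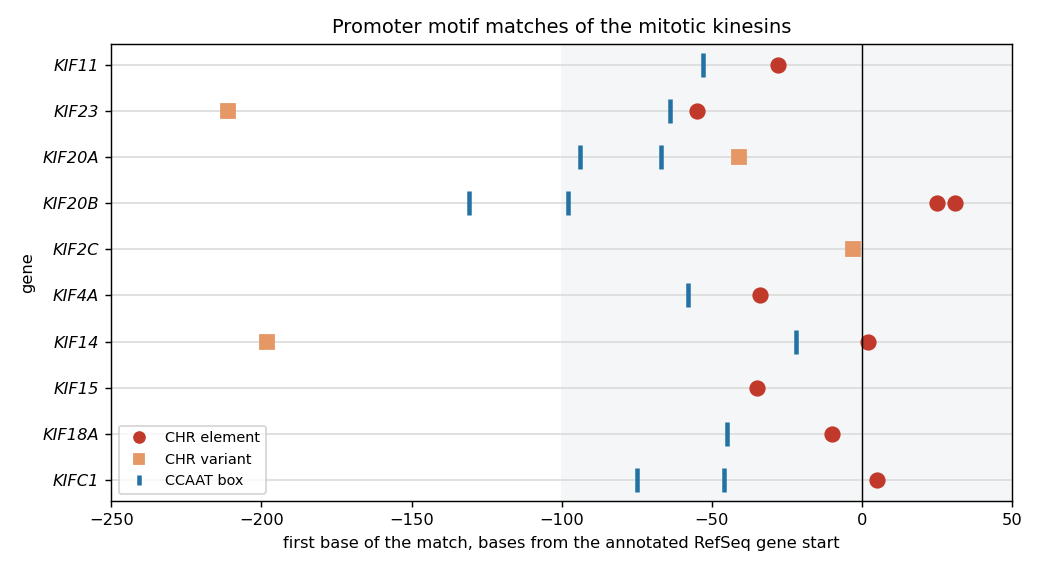
Positions of CHR-type matches (circles, TTTGAA; squares, TTTAAA) and CCAAT matches (blue bars) in the 10 promoters, in bases from the RefSeq gene start, with the 150-base window shaded. Each gene has a CHR-type match in the shaded window, and KIF2C and KIF15 have no CCAAT match.

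Library totals lay between 24.8 and 26.0 M estimated counts in 5 libraries, but miR92a 1 held 0.704 M. The kinesins had 34 to 184 counts each in miR92a 1, a Poisson coefficient of variation of 7.37% to 17.1%, and 744 to 6593 counts elsewhere, 1.23% to 3.67%. Deviations from the group means correlated at 0.42 between the replicate 3 libraries over all tested genes. For replicates 1 and 2 the correlations were only 0.15 and 0.16. Over 4829 abundant genes the unmatched scramble 1 and miR92a 2 (0.517) exceeded pair 1 (0.370) and pair 2 (0.475). The labels do not say that the numbers pair cultures. The kinesins' values are therefore given both from a fit on group alone and from one that also holds the replicate number (the block). The 8 erythroid and BCR-ABL1 genes used to check the line were all above 1 CPM (counts per 1 M library counts, with TMM scaling) on average. The labelled cell type is myeloblast, but of 4 myeloblast granule genes MPO was at 0 in every library and their summed level was at most 6.28 CPM. The 8 lymphoid, monocyte, fibroblast and endothelial genes checked summed to 10.5 to 12.1 CPM in the control and 6.80 to 9.58 CPM in the mimic libraries, and their part in the results was not tested.

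The kinesins were mostly higher with the miR-92a-1-5p mimic, by 1.2- to 1.6-fold where the change passed with the replicate block. The main test was edgeR's quasi-likelihood test on group alone, with p adjusted by Benjamini-Hochberg over 14543 genes and a threshold of 0.05. There none of the 10 passed in either direction, where 0.433% of all tested genes were called higher and 0.976% lower. In that fit 6 of 10 had an unadjusted p under 0.05, all of them higher, against 13.5% of all genes in either direction. Also on group alone, DESeq2 called 3 higher against 0.963%, and limma-voom called 1 against 0.639%. With the replicate block, an alternative to the main test, 6 of 10 were called higher (KIF4A, KIF23, KIFC1, KIF2C, KIF11 and KIF14) and none lower. In the blocked fit 4.57% of all tested genes were called higher and 6.70% lower. The median log2 fold change of the 10 on group alone was 0.35, and 9 of 10 were positive, against a median of -0.01 over all tested genes. A total of 6 members (KIF11, KIF23, KIF2C, KIF4A, KIF18A and KIFC1) had every mimic library above every control library in CPM, a pattern shown by 9.73% of tested genes. Because the set was chosen with earlier results of these data known, the shares beside it are descriptions and not a test.

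**Figure D2:**
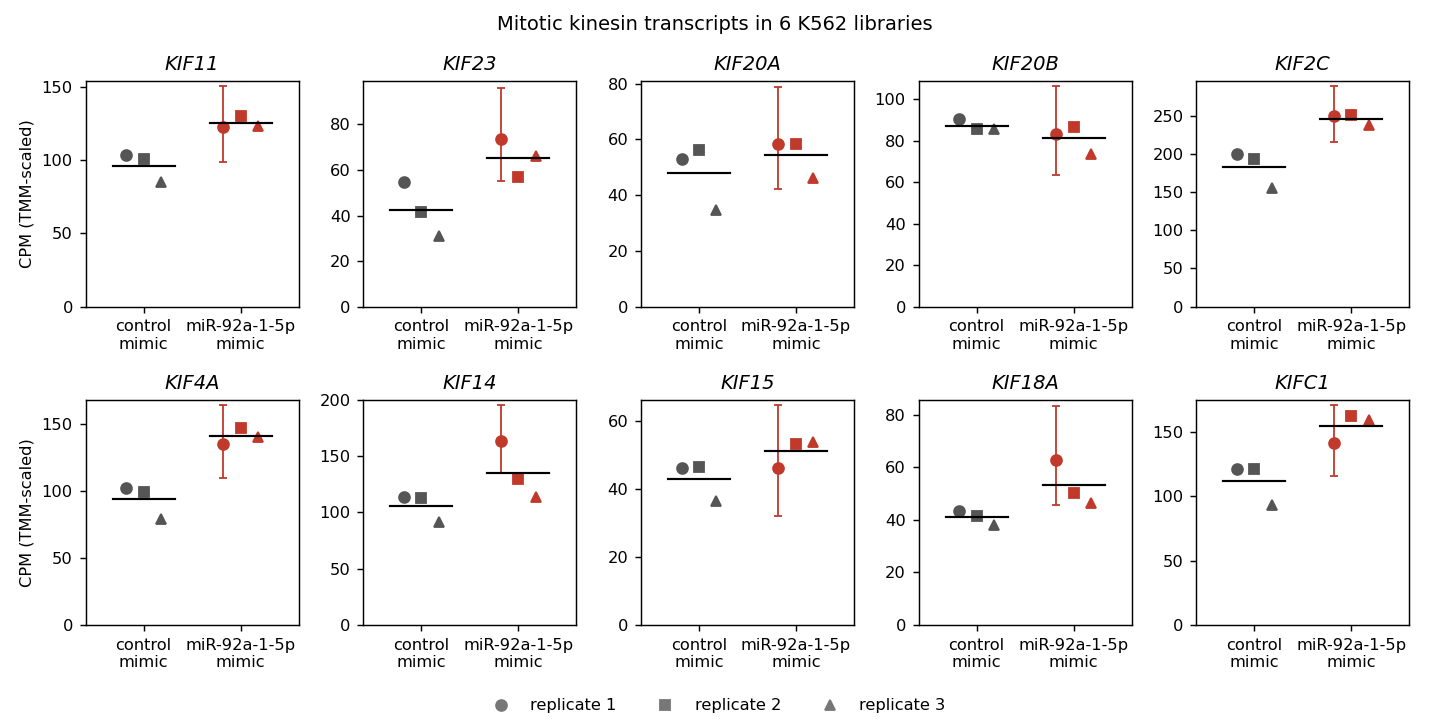
TMM-scaled CPM of each kinesin in the 3 control-mimic (grey) and 3 miR-92a-1-5p-mimic (red) libraries, with shapes for replicate numbers, bars for group means and a 95% Poisson interval on miR92a 1. Scramble 3 is the lowest or joint lowest control for each gene, and the groups overlap for KIF20A, KIF20B, KIF14 and KIF15.

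KIF11, KIFC1 and KIF15 act in building and holding the bipolar spindle. KIF11 (Eg5; chromosome 10, 92593286 to 92655395, GRCh38) pushes the spindle poles apart by sliding antiparallel microtubules. It had 103, 100.3 and 85.0 CPM in scramble 1, 2 and 3 and 122, 130.2 and 122.8 CPM in miR92a 1, 2 and 3. Each mimic library lay above each control library. Its log2 fold change was 0.38 ± 0.10 (SE, adjusted p = 0.139 by edgeR) on group alone and 0.41 ± 0.09 (adjusted p = 0.0042) with the block, where the call was lost without pair 2 (0.0745).

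KIFC1 (chromosome 6, 33391536 to 33409924) is the minus-end motor that crosslinks spindle microtubules and clusters extra centrosomes. It had 121, 122 and 93.2 CPM in the control libraries and 141, 162 and 159 CPM with the mimic, so the groups did not overlap. The log2 fold change was 0.48 ± 0.12 (adjusted p = 0.127, edgeR) on group alone and 0.51 ± 0.10 (adjusted p = 0.0014) with the block. KIF15 (chromosome 3, 44761717 to 44873376), which can maintain the spindle when KIF11 is inhibited, had 46.1, 46.5 and 36.4 CPM in the controls and 46.3, 53.3 and 53.8 CPM with the mimic. Its groups overlapped through miR92a 1, which rested on 34 counts, and it passed in neither fit (0.28 ± 0.13, adjusted p = 0.408; block 0.31 ± 0.12, adjusted p = 0.087, edgeR).

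KIF2C, KIF4A and KIF18A act on chromosomes and microtubule ends. KIF2C (MCAK; chromosome 1, 44739818 to 44767767) depolymerises microtubules at kinetochores and helps to correct wrong attachments. It was the most abundant of the 10 and had 201, 194 and 155 CPM in the control libraries and 250.3, 252 and 238 CPM with the mimic. The mimic libraries were close together and all above the controls. The log2 fold change was 0.43 ± 0.11 (adjusted p = 0.134, edgeR) on group alone and 0.45 ± 0.08 (adjusted p = 0.0012) with the block.

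KIF4A (chromosome X, 70290090 to 70420832), a chromosome-bound motor that also limits microtubule length at the central spindle with PRC1, came nearest to the threshold on group alone. It had 103, 99.3 and 79.3 CPM in the controls and 135, 147 and 140.4 CPM with the mimic, a gap of more than 30 CPM between the highest control and the lowest mimic library. The log2 fold change was 0.59 ± 0.12 (adjusted p = 0.0515, edgeR) on group alone and 0.63 ± 0.09 (adjusted p = 1.1e-04) with the block. It passed on group alone when scramble 3 was left out (adjusted p = 0.047) and reached 0.184 without miR92a 2. Its intronless relative KIF4B held 1 count in scramble 1, 2 in scramble 3 and 0 elsewhere. The copies are nearly identical, so how reads were divided between them is uncertain.

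KIF18A (chromosome 11, 28020620 to 28108308) damps the oscillation of chromosomes at the metaphase plate. It had 43.5, 41.6 and 37.9 CPM in the controls and 62.6, 50.2 and 46.6 CPM with the mimic. The groups did not overlap, but the highest value was that of miR92a 1, on 46 counts. The gene passed in neither fit (0.32 ± 0.13, adjusted p = 0.334; block 0.33 ± 0.11, adjusted p = 0.052, edgeR), and without miR92a 1 its log2 fold change was 0.24.

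KIF23, KIF14, KIF20A and KIF20B work at the midzone and in cytokinesis, and their log2 fold changes ran from -0.11 to 0.59. KIF23 (MKLP1; chromosome 15, 69414246 to 69448427) forms the centralspindlin complex with RACGAP1. It had 54.8, 41.5 and 30.9 CPM in the controls and 73.5, 57.0 and 66.1 CPM with the mimic. The groups did not overlap, and the controls spread widely. The log2 fold change was 0.59 ± 0.21 (adjusted p = 0.256, edgeR) on group alone and 0.70 ± 0.12 (adjusted p = 7.4e-04) with the block. The blocked value was the largest of the 10, and it was 0.45 without the replicate 3 pair.

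KIF14 (chromosome 1, 200551497 to 200620734) recruits citron kinase to the midbody. It had 114, 113 and 91.6 CPM in the controls and 163, 129 and 114 CPM with the mimic, so miR92a 3 was level with scramble 1. The log2 fold change was 0.31 ± 0.14 (adjusted p = 0.410, edgeR) on group alone and 0.31 ± 0.09 (adjusted p = 0.024) with the block, where the call was lost without pair 1 (0.140) or pair 2 (0.0908). Without miR92a 1, the library with the highest value, it was 0.20 on group alone, and 0.20 also without scramble 3.

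The sister motors KIF20A and KIF20B did not pass in either fit. KIF20A (MKLP2; chromosome 5, 138178719 to 138187715) carries the chromosomal passenger complex to the midzone and had 53.0, 56.4 and 34.8 CPM in the controls and 58.5, 58.4 and 46.3 CPM with the mimic. Both replicate 3 libraries were low and the groups overlapped (0.15 ± 0.20, adjusted p = 0.813; block 0.21 ± 0.11, adjusted p = 0.243, edgeR). KIF20B (MPP1; chromosome 10, 89701610 to 89774939), a late-cytokinesis motor, had 90.5, 85.6 and 85.6 CPM in the controls and 83.0, 86.5 and 73.7 CPM with the mimic. It was the only member with a negative log2 fold change (-0.11 ± 0.10, adjusted p = 0.706; block -0.10 ± 0.09, adjusted p = 0.548, edgeR).

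**Figure D3:**
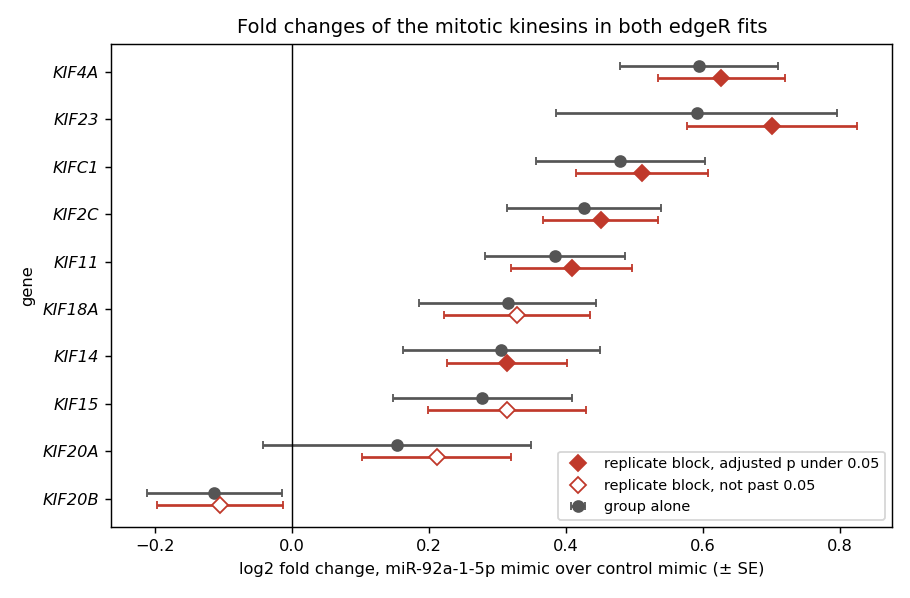
Log2 fold changes with standard errors for the fit on group alone (grey circles) and with the replicate block (red diamonds, filled where the adjusted p was under 0.05). The filled diamonds run from KIF14 at 0.31 to KIF23 at 0.70, and KIF20B alone lies below 0.

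The level of KIF4A relative to KIF20B separated the groups. The log2 ratio of KIF4A to KIF20B was 0.18, 0.21 and -0.11 in scramble 1, 2 and 3 and 0.70, 0.76 and 0.93 in miR92a 1, 2 and 3. This pair was chosen after the values had been seen, as the members at opposite ends of the group-alone fold changes, and the ratio has no test. Per kilobase of transcript (the one with the longest coding sequence), control levels ran from 63.6 ± 8.55 CPM per kb (SD, n = 3) for KIF2C and 41.4 ± 5.99 for KIFC1 to 8.88 ± 1.18 for KIF15. KIF4A (21.6 ± 2.89) and KIF11 (19.8 ± 2.00) followed KIFC1 and did not differ from each other beyond their spread. KIF20A (15.02 ± 3.63), KIF14 (14.6 ± 1.73), KIF20B (13.6 ± 0.439), KIF18A (11.5 ± 0.807) and KIF23 (11.4 ± 3.21) came next. Neighbours among these lay within their spread except KIF20B and KIF18A, whose gap exceeded both SDs added. The isoforms used in K562 cells were not measured. KIF20A overlaps BRD8 and CDC23, KIF18A overlaps METTL15 and KIF4A overlaps PDZD11 on opposite strands, and KIF15 overlaps TMEM42 on the same strand, so with the strand of the libraries not given, some reads of these genes may be shared.

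The size of the difference varied between the replicate numbers. The median difference of the 10 between same-numbered libraries was 0.28 for replicate 1, 0.32 for replicate 2 and 0.54 for replicate 3 on the log2 scale, and it was largest in replicate 3 for 7 of 10 genes. The control library moved more than the mimic library there. All 10 kinesins were lower in scramble 3 than in the mean of scramble 1 and 2, by a median log2 difference of -0.35, while miR92a 3 differed from miR92a 2 by a median of -0.08. KIF23 had the widest range, with differences of 0.42, 0.46 and 1.09 for replicates 1, 2 and 3. Without scramble 3 the log2 fold change of KIF20A on group alone was -0.036. The median over the 10 without scramble 3 was 0.28. What set scramble 3 apart was not tested.

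**Figure D4:**
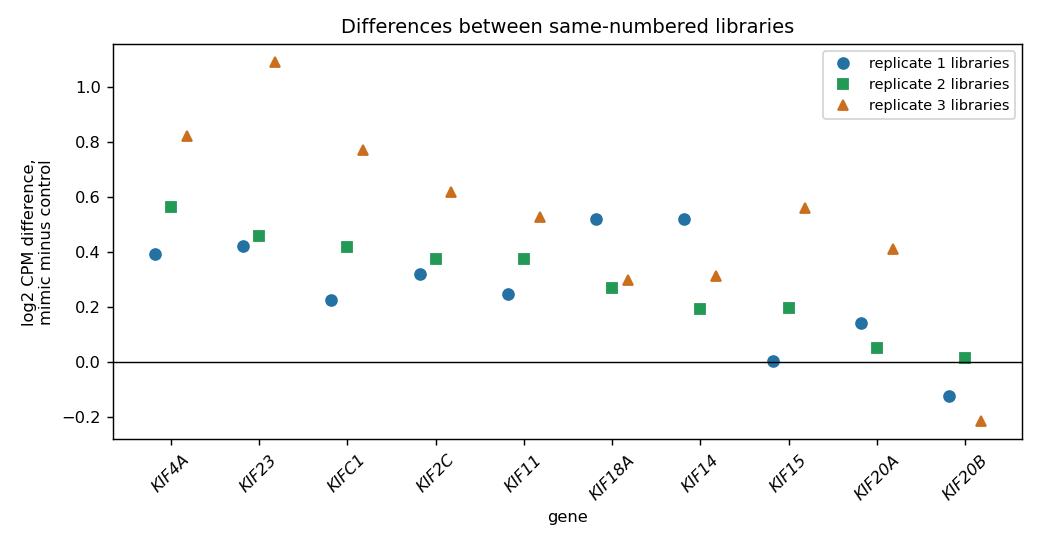
Log2 CPM of the mimic library minus that of the control library with the same replicate number, for each kinesin in order of its fold change. The replicate 3 difference is the largest for 7 of the 10 genes and reaches 1.09 for KIF23, and all differences except those of KIF20B in replicates 1 and 3 lie above 0.

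Among 5 tested further kinesins with mitotic roles, KIF22, a chromosome-bound motor that pushes chromosome arms to the metaphase plate, rose from 123.5 ± 8.64 to 186.5 ± 7.79 CPM (SD, n = 3; log2 fold change 0.59 ± 0.09 SE, adjusted p = 0.021 by edgeR on group alone). That call held only without scramble 3 when libraries were left out in turn (0.031; adjusted p up to 0.107 otherwise). KIF22 was the only one of the 5 called on group alone, against 0.433% of all tested genes called higher. The list's median was 0.14. Of 28 tested interphase kinesins and light chains none passed on group alone in edgeR, 1 was higher and 1 lower at an unadjusted p under 0.05, and DESeq2 and limma-voom called 0; their median was 0.03. With the block only the neuronal-type motor KIF5A fell, from 61.8 ± 15.4 to 36.4 ± 15.9 CPM (block -0.67 ± 0.11, adjusted p = 5.0e-04; group alone -0.61 ± 0.26, adjusted p = 0.358, edgeR), and its groups overlapped. Over all tested genes 6.70% fell with the block, and 13.5% had an unadjusted p under 0.05 on group alone in either direction. Of 21 tested genes of dynein, the main minus-end motor, and dynactin, 1 fell on group alone, the light chain DYNLRB1, from 55.2 ± 3.44 to 29.4 ± 6.60 CPM (-0.84 ± 0.16, adjusted p = 0.042, edgeR), and with the block 2 fell and 1 rose, near the 6.70% lower and 4.57% higher over all tested genes; the list's median was 0.11. The DYNLRB1 call held only without miR92a 2 among the fits with 1 library left out (0.034; up to 0.184).

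Further genes encode proteins that load, regulate or work with these kinesins. Of 30 tested partners and regulators 2 rose on group alone and none fell, against 0.433% higher and 0.976% lower over all tested genes. With the block 21 rose and 1 fell, against 4.57% and 6.70% of all tested genes. The median log2 fold change of the list was 0.39. Like the kinesins, the list was chosen with earlier results of these data known, so these shares are descriptions. CIT, the citron kinase that KIF14 brings to the midbody, rose from 64.7 ± 8.34 to 114 ± 0.957 CPM (0.81 ± 0.11, adjusted p = 0.013, edgeR on group alone). GTSE1, an inhibitor of KIF2C, rose from 31.4 ± 3.05 to 50.3 ± 3.64 CPM (0.70 ± 0.12, adjusted p = 0.032, edgeR). With 1 library left out, CIT passed in 3 of 6 fits (adjusted p 0.0102 to 0.0712; lost without scramble 1, miR92a 1 or miR92a 2) and GTSE1 in 1 of 6, that without scramble 3 (0.0487 to 0.159). The promoters of 19 of the 25 list members in the promoter table held TTTGAA or TTTAAA in the 150-base window.

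RACGAP1, the partner of KIF23 in centralspindlin, was the one partner of 30 that fell with the block, against 6.70% of all tested genes. It was named after its values were seen. It had 120.1, 111 and 106 CPM in the control libraries and 78.9, 87.5 and 86.2 CPM with the mimic, without overlap and opposite in direction to KIF23 in each replicate number. The log2 fold change was -0.40 ± 0.09 (adjusted p = 0.097, edgeR) on group alone and -0.37 ± 0.09 (adjusted p = 0.010) with the block. The blocked call was lost without pair 1 (adjusted p = 0.0776) or pair 2 (0.0978). RACGAP1 held 7 bases complementary to the seed in its 3′ UTR (chromosome 12, 49989495 to 49989501, minus strand, starting at base 767 of 1106), shown with the match in capitals. A match of 7 or 8 bases was present in 16.9% of tested genes and in 3 of the 30 partners, and the others had positive log2 fold changes: BIRC5, a chromosomal passenger subunit (block 0.30 ± 0.09, adjusted p = 0.030, edgeR), and ECT2, the RhoA activator of cytokinesis (0.27 ± 0.10, adjusted p = 0.083). CIT, which rose, held 3 of the 6-base matches.
RACGAP1 3′ UTR site: gcccccataccCCCAACCttgtccagtgg

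The factors that control transcription of G2 and M genes were near 0 as a list. Of 15 tested, none passed on group alone in edgeR, DESeq2 and limma-voom called 0, and the median was 0.01. Single log2 fold changes ran from -0.34 to 0.30. The list pools parts of the DREAM repressor with MYBL2 and FOXM1, so opposite changes could cancel in its median. At an unadjusted p under 0.05 in edgeR 1 was higher and 1 lower, against 13.5% of all tested genes in either direction. With the block 1 rose and 1 fell, near the 4.57% higher and 6.70% lower over all tested genes. TFDP1, a dimer partner of E2F proteins, rose (0.28 ± 0.08, adjusted p = 0.035, edgeR). RBL2 (p130), a pocket protein of the DREAM repressor, fell from 113 ± 9.01 to 89.0 ± 3.67 CPM (-0.35 ± 0.09, adjusted p = 0.018, edgeR). On group alone the adjusted p of TFDP1 and RBL2 was 0.410 and 0.167 (edgeR). Both calls were lost whichever pair was left out (adjusted p 0.0687 to 0.173 for TFDP1 and 0.0529 to 0.0896 for RBL2). The 15 G1/S and replication genes were all positive, with a median of 0.25. On group alone edgeR called 0, with 6 higher at an unadjusted p under 0.05, against 13.5% of all tested genes in either direction. There limma-voom called 0 and DESeq2 1, against 0.963% of all tested genes called higher by DESeq2. In the blocked fit 6 rose, against 4.57% of all tested genes. RRM2, the regulated subunit of ribonucleotide reductase, was among them (0.55 ± 0.09, adjusted p = 2.7e-04, edgeR). So were CCNE1, the G1/S cyclin E1 (0.51 ± 0.11, adjusted p = 0.0035), and TYMS, which makes thymidylate (0.37 ± 0.09, adjusted p = 0.010, edgeR). On group alone the adjusted p of RRM2, CCNE1 and TYMS was 0.104, 0.484 and 0.193 (edgeR). The CCNE1 call was lost without pair 2 (0.117) and the TYMS call without pair 3 (0.0517).

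**Figure D5:**
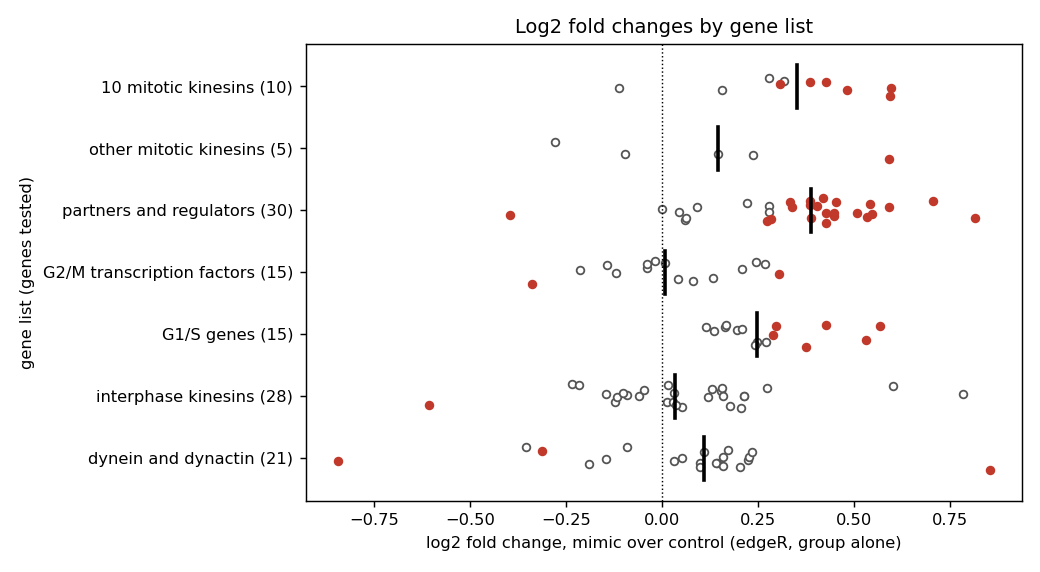
Log2 fold changes on group alone for each tested member of 7 gene lists, with black bars at the medians and filled red points where the adjusted p was under 0.05 with the replicate block. The 10 kinesins (median 0.35) and their partners (0.39) lie to the right of the interphase kinesins (0.03) and of dynein and dynactin (0.11). The G1/S genes (0.25) are also shifted to the right and lie closer to the kinesins.

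A further 5 genes followed the mean profile of the 10 most closely over the 6 libraries, among genes with a mean of at least 20 CPM. Likeness was the root-mean-square difference between centred log2 CPM profiles, on which a gene equal in all libraries would stand at 0.217. TOP2A, the topoisomerase that disentangles mitotic chromosomes, was the closest at 0.0233, with 599 CPM in the control and 772 CPM in the mimic group. Its log2 fold change was 0.36 ± 0.12 (SE, adjusted p = 0.229 by edgeR on group alone). CCDC71L (0.0365), HMGN2, a nucleosome-binding protein (0.0396), the heat shock co-chaperone DNAJB1 (0.0405) and VWA9 (0.0417) followed. None of these 5 genes passed on group alone (adjusted p 0.167 to 0.433, edgeR). Of the kinesins themselves KIF2C (0.0420) and KIF11 (0.0526) were nearest to their shared mean and KIF20B (0.259) and KIF23 (0.227) farthest.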

How the data were processed

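Expected counts, estimated per gene symbol by the authors with kallisto per the labels' protocols, were deposited as whole numbers for 6 libraries (3 per group); GRCh38 is named in the submitters' processing notes, and the version, annotation and strand are not given in the sources used here. Columns were matched to samples by the description labels. The average coverage the labels give is 62 M; the table totals were 0.704 to 26.0 M. Genes passing edgeR's filterByExpr (14543) were normalised (TMM factors), and edgeR 4.0.16 in R 4.3.3 gave quasi-likelihood tests with group as the only term, and p-values were adjusted by Benjamini-Hochberg over those genes. The standard error is the log2 fold change over the square root of F. Log2 CPM used a prior count of 2. Poisson intervals (95%) cover counting error only.

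The replicate numbers were checked from the data, since the labels do not say that they pair cultures: deviations correlated at 0.15, 0.16 and 0.42 between same-numbered libraries over all tested genes, each above 0.1, and the unmatched libraries scramble 1 and miR92a 2 at 0.0993 (0.517 over 4829 abundant genes, where pair 1 was at 0.370), so the numbers separate replicate 3 from the others more clearly than 1 from 2. No 2 libraries of a group agreed within sampling noise (mean chi-square per gene of 1.81 or more).

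The kinesins and the gene lists were chosen with earlier results of these data known. Named from each list were up to 4 genes past the threshold on group alone, else up to 3 by the smallest p past the threshold with the block, else the 2 most abundant, and 5 genes with the most alike profile; others are said to be chosen after their values were seen. Alternatives were DESeq2 1.42.0, limma-voom (limma 3.58.1), RLE factors, library totals, no low-count filter, a 1 CPM mean as the filter, the block, and libraries or pairs left out. The code was tested on simulated data. Sequences come from RefSeq (GRCh38.p14) and GENCODE v29; all 10 kinesins matched by symbol. Figures used matplotlib 3.10.9 with Python 3.11.15.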

Additional observations from a re-analysis of the deposited data

How the results depend on the processing

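The count of kinesins called higher was 0 on group alone and with library totals, 1 with limma-voom, RLE factors, no filter or a mean of at least 1 CPM (KIF4A in each), 3 with DESeq2 and 6 with the replicate block. With the block and 1 pair left out it was 5 without replicate 1, 4 without replicate 2 and 6 without replicate 3; KIF11 was lost without replicate 2 (adjusted p = 0.0745) and KIF14 without replicate 1 (0.140) or 2 (0.0908). On group alone with 1 library left out it was 0 to 1. None was called lower in any of these fits. The median log2 fold change of the 10 stayed between 0.28 and 0.42 in all of them. Of 160 alternative values for single kinesins 1 changed sign, KIF20A without scramble 3 (-0.036; range -0.036 to 0.288 over the fits with 1 library left out).

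For the other lists, partners called higher were 2 on group alone, 7 with DESeq2, 21 with the block (18, 16 and 18 with pair 1, 2 or 3 out) and 0 to 4 with 1 library out; partners lower were 1 with the block and 1 without pair 3. G1/S genes higher were 1 with DESeq2 and 6 with the block (4, 2 and 4 with a pair out). G2/M factors were 1 higher and 1 lower with the block, and 1 higher without pair 3. Further mitotic kinesins higher were 0 to 1 with 1 library out and 2 with the block without pair 3. Interphase kinesins lower were 1 with the block (1, 1 and 2 with a pair out). Dynein and dynactin genes were 1 higher and 2 lower with the block (1 higher without pair 1; 2 and 2 without pair 3), and those lower were 0 with library totals and 0 to 1 with 1 library out. The cause of these shifts was not tested. Depth limits miR92a 1 most: a count of 3 equalled 4.08 CPM in that library, and 0.115 to 0.125 CPM in the other 5.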
